A study of Mus musculus with 36 samples.

Results

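Peaks that opened within 1 h of KCl depolarization and not with BDNF (brain-derived neurotrophic factor) were examined in mouse cortical neurons. Cortices of all CD-1 embryos, taken at embryonic day 15, were dissociated and cultured for 7 days. Firing was silenced over 2 h by 100 µM AP-5, which blocks NMDA receptors, together with 1 µM TTX, which blocks sodium channels. The neurons then received 55 mM KCl or 10 ng/ml BDNF for 1, 6 or 10 h. Controls stayed in AP-5 and TTX until they had spent 3, 8 or 12 h in the blockers. Accessibility was measured by ATAC-seq, in which a transposase cuts open chromatin, and transcripts by RNA-seq, each with 2 libraries for each of the 9 groups, so that the controls of the 3 times gave 6 libraries. Whole cultures were measured in bulk, and fewer cells of a type cannot be told apart from less signal per cell. The labels tie no ATAC library to an RNA library, and p-values measure the spread between these samples.

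The rule started from the 40667 of 58177 peaks whose mean count over the 18 ATAC libraries was at least 20, here called kept peaks. Each library was scaled to CPM, its counts relative to all its reads in peaks. For each stimulus the log2 ratio of its mean CPM to the mean of the 6 controls was taken after adding 0.5 CPM to both, and the median over kept peaks was subtracted. Members had a log2 ratio of at least 0.8 with KCl at 1 h and below 0.3 with BDNF at 1 h. This selected 481 peaks, 1.18% of the kept peaks. Of the 1805 kept peaks that reached 0.8 with KCl, 1001 also reached 0.8 with BDNF and 323 lay between the limits. Conversely, 1318 peaks reached 0.8 with BDNF and stayed below 0.3 with KCl.

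Raised extracellular potassium depolarizes the membrane and opens voltage-gated calcium channels, and calcium then acts on transcription through CaM kinases, calcineurin and factors such as CREB and MEF2. BDNF binds the receptor TrkB and acts strongly through the Ras and MAP kinase route. Both routes induce early response factors, among them the Fos and Jun proteins that form AP-1, a dimer that binds the letters TGANTCA and is known for its part in activity-regulated enhancers. Distal elements of neurons also carry binding letters of homeodomain, POU, MEF2 and RFX factors, which belong to neuronal identity as much as to stimulation.

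The central 200 bp of 6 members are shown first because they are regions that later results turn on, with a peak opened by both stimuli for comparison. All are GRCm38 (mm10) reference sequence on the plus strand. Capitals mark matches to the letters of the motifs searched.
The Tle4 member was intergenic at chr19:14777032-14778019, and its window chr19:14777426-14777625 held AP-1, E-box (CAGCTG), homeobox and POU (ATGCAAAT) letters.
Tle4 distal: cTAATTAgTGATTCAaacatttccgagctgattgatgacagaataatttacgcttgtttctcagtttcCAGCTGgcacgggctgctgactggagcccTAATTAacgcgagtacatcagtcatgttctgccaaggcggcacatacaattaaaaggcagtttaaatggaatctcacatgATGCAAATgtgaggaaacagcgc
The intergenic member nearest to Ift57, at chr16:49572686-49573353 with its window at chr16:49572920-49573119, held the full cAMP response element (CRE, TGACGTCA), a KLF match (GGGTGTG) and a MEF2 match.
Ift57 distal: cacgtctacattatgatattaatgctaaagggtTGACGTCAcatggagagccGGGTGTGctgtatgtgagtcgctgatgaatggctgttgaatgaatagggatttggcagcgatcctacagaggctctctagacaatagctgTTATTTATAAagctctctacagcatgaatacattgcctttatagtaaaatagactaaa
The Cacnb2 member, in an intron at chr2:14936355-14936991 (window chr2:14936574-14936773), held a proneural E-box (CAGATG, here on the minus strand) and no AP-1 letters.
Cacnb2 intron: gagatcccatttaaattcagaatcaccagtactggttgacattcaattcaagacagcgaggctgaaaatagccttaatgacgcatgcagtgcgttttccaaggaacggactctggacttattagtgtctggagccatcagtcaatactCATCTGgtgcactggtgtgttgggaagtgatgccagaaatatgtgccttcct
The intergenic member nearest to Ube2ql1, at chr13:69759016-69759395 (window chr13:69759106-69759305), held an NFY match (AGCCAAT, here on the minus strand).
Ube2ql1 distal: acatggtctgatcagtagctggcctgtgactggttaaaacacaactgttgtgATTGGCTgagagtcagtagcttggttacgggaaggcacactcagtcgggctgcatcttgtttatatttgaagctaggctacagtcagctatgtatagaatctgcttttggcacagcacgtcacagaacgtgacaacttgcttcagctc
Members in introns of Nr4a3 (chr4:48079691-48080036, window chr4:48079764-48079963) and of Mef2c (chr13:83603948-83604148, window chr13:83603949-83604148) are shown because both host genes encode activity-linked transcription factors. The first held an E-box and the second 2 MEF2 matches.
Nr4a3 intron: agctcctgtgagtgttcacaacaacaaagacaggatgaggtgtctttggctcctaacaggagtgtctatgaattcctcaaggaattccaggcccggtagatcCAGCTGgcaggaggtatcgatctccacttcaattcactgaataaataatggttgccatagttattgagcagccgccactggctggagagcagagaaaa
Mef2c intron: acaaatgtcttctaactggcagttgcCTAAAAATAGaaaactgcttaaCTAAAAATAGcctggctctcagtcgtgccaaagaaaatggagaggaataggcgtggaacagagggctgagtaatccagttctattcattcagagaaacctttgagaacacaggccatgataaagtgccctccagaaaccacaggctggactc
For comparison, a strong peak outside promoters and exons that both stimuli opened (2.48 with KCl and 3.33 with BDNF at 1 h) lay at chr13:20433180-20433576, and its window chr13:20433279-20433478 held 3 AP-1 matches besides NFY and proneural letters.
Opened by both stimuli: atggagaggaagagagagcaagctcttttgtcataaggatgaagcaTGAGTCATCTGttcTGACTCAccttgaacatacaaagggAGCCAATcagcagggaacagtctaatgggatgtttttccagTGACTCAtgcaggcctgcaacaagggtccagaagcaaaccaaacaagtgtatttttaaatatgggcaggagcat

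ATAC libraries held 1.24 to 6.24 M reads in peaks (M for mega, median 3.55), the fewest in the second KCl 6 h library. Members were weaker than other kept peaks, with a median mean count of 28.7 against 42.3. In the RNA libraries (8.51 to 36.7 M reads) 10 neuronal markers, such as Snap25 and Tubb3, summed to normalised counts of 50827 to 60831 in every library. The sums were 7027 to 12637 for 5 astrocyte markers, 2578 to 4078 for 5 markers of the oligodendrocyte lineage and 5104 to 9050 for 5 progenitor markers. Microglial (93.7 to 183) and endothelial (10.2 to 29.3) markers were low. Means at KCl 1 h against controls were 2894 and 3668 for the oligodendrocyte lineage, 11621 and 10594 for astrocytes and 56782 and 55628 for neurons. The part of these other cells in the results was not tested.

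Members were chosen by their KCl, BDNF and control values at 1 h, with controls of all times, and those values are given as a description. Their median log2 ratio was 0.93 with KCl at 1 h (0.80 to 1.57) and -0.03 with BDNF at 1 h. The first and second KCl 1 h libraries had medians of 0.94 and 0.97, the BDNF 1 h libraries -0.10 and -0.01, and the 6 control libraries -0.06 to 0.04. Both KCl 1 h libraries therefore stood apart from all others in the plot of members by library. Peak by peak the libraries were noisier. Both KCl 1 h libraries were above 0 in 481 members, but both reached 0.8 on their own in only 250, and the lowest single value was 0.12. Both lay above all 6 controls in 434 members, where 12.7% of kept peaks did so. As the rule used these libraries, nothing is read from this. With either KCl 1 h library alone the rule chose 722 or 802 peaks, and 250 were chosen with each. With the 2 controls of 1 h in place of all 6 it chose 587 peaks, 273 of them members.

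**Figure D1:**
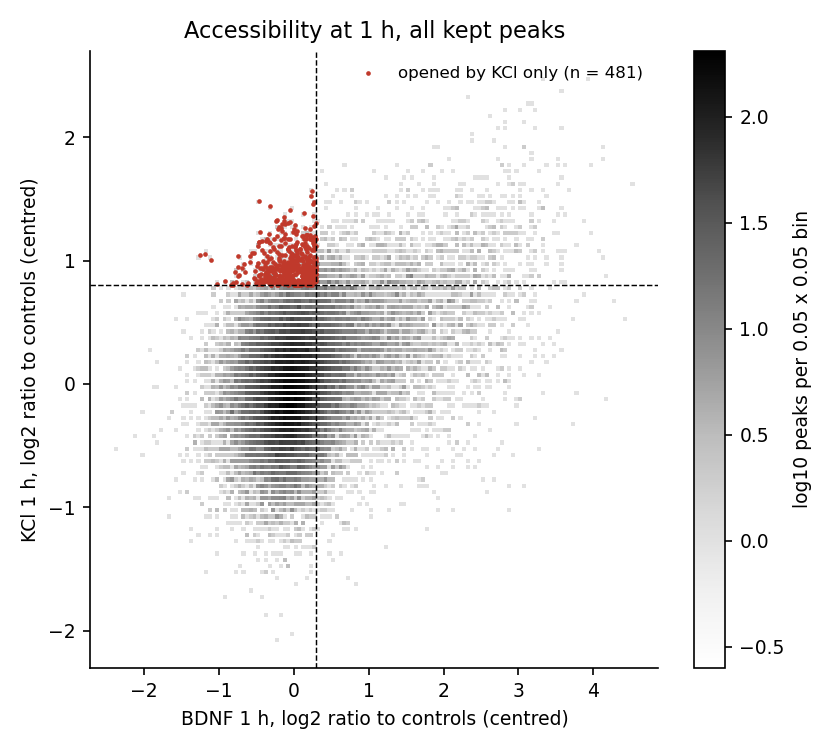
Log2 ratio to controls at 1 h with BDNF (x axis) and KCl (y axis) for the 40667 kept peaks, as the log10 number of peaks per bin (grey), with the 481 members in red. Dashed lines mark the limits of 0.8 and 0.3, and the members fill the upper left corner, next to many peaks just outside the limits.

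**Figure D2:**
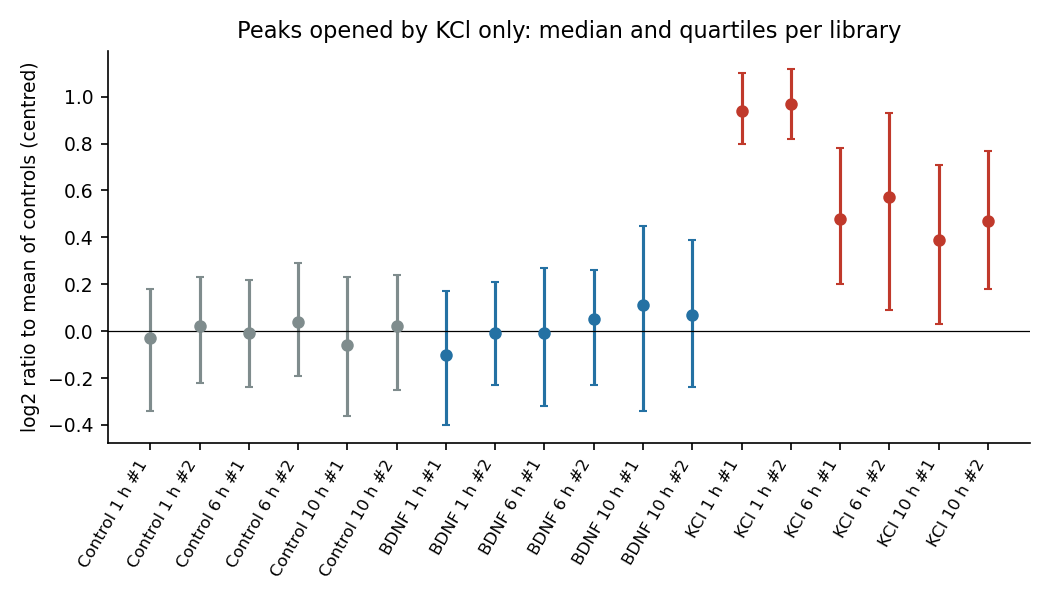
Median (point) and quartiles (bars) of the centred log2 ratio over the 481 members in each of the 18 ATAC libraries, with controls in grey, BDNF in blue and KCl in red. The KCl medians are 0.94 and 0.97 at 1 h and 0.39 to 0.57 later, while BDNF and control medians lie between -0.10 and 0.11.

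The limits cut through a continuum. Just inside the KCl limit lay intergenic peaks near Poc5 (0.8001) and Tle4 (0.8002), the latter being the Tle4 member with the printed sequence. Just outside lay an intergenic peak near Fat4 (0.7999) and an intronic peak of Tnr (0.7997). Just inside the BDNF limit lay a peak near Khdrbs3 (0.2990) and an intronic peak of Ryr3 (0.2987), and just outside lay peaks near A230072I06Rik (0.3011) and at the promoter of Thbs1 (0.3015). The member with the largest KCl ratio was at the promoter of a noncoding transcript at chr6:29985115-29985497, 62.5 kb from the nearest protein-coding start, that of Nrf1. It held 18.5 and 19.7 CPM with KCl at 1 h, 8.37 and 5.29 with BDNF, and 3.30 to 8.83 (median 5.82) in controls. The next ones were intergenic peaks nearest to Atp11b (1.52), Gpd2 (1.48) and Dcdc2c (1.48), followed by peaks in exons of Pdcd1lg2 (1.46) and Mgmt (1.45).

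Whether the difference between the stimuli lasted was tested in the 6 h and 10 h libraries, which entered the rule only through the minimum of the mean count over all 18 libraries. At 6 h accessibility was higher with KCl than with BDNF in 41 of 481 members and lower in 0 (edgeR quasi-likelihood test, Benjamini-Hochberg adjusted p below 0.1 over 56383 peaks). Over all peaks tested 1.37% were called higher and 2.25% lower. All peaks include those that BDNF opened at 1 h, which the rule kept out of the members. Of peaks opened by BDNF only, 18.2% were called lower. The lack of lower calls in members and their shift against all peaks, here and at 10 h, are thus not independent of the rule. The median log2 fold difference was 0.51 in members (quartiles 0.13 and 0.83) and -0.00 over all peaks, with 397 members above 0. At an unadjusted p below 0.05, 118 members were higher and 4 lower, against 3731 and 4609 of all 56383 peaks. Both KCl 6 h libraries lay above both BDNF 6 h libraries in 287 members, 40 of the 41 called ones among them, and this was so in 25.1% of kept peaks. The median standard error over members was 0.44. The count of 41 rested on every library of the comparison. It was 14 (with 1 lower) or 19 without the first or second KCl 6 h library and 7 or 21 without the first or second BDNF 6 h library.

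At 10 h the difference was smaller. KCl was higher in 21 members (background 0.830%) and lower in 1 (background 1.16%), and the median difference was 0.35 against 0.01 over all peaks. The direction was positive in 376 members. Both KCl 10 h libraries were above both BDNF 10 h libraries in 211 members (23.8% of kept peaks). Leaving out single KCl or BDNF 10 h libraries left 4, 5, 5 and 10 members called. Of the members called higher, 12 were called at both times and 50 at either time. Fold differences of called members ran from 0.80 to 2.83 (log2) at 6 h and from 1.03 to 2.06 at 10 h. The peaks opened by both stimuli at 1 h had a median of -0.41 at 6 h, with 6 called higher with KCl and 99 lower, and those opened by BDNF only had -0.63, with 1 higher and 240 lower. Those peaks were selected for their BDNF response.

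**Figure D3:**
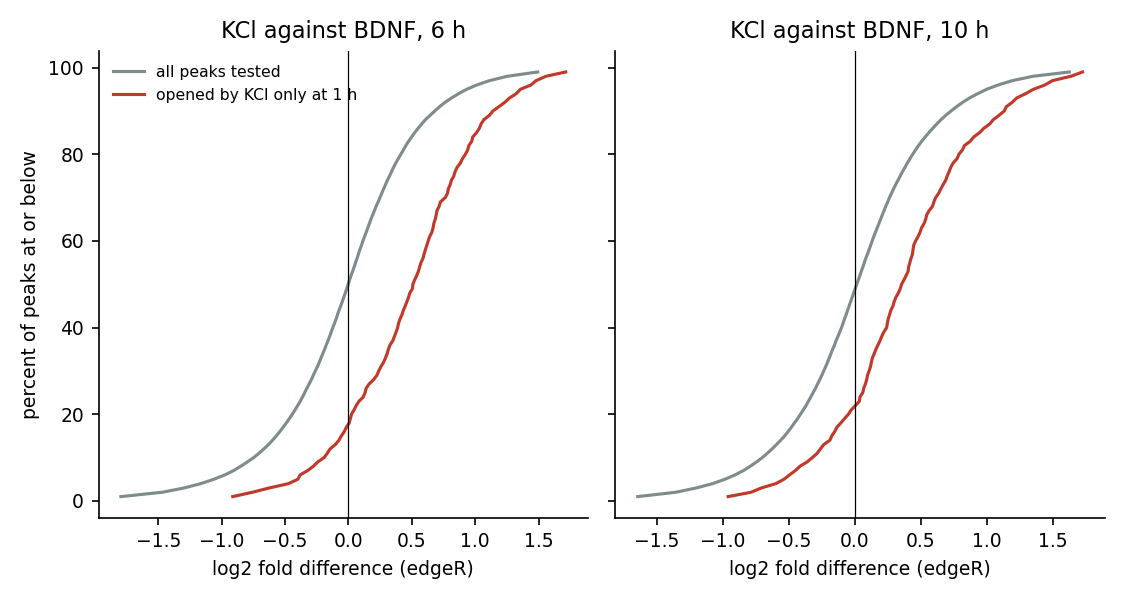
Percent of peaks (y axis) at or below a log2 fold difference of KCl against BDNF (x axis) at 6 h (left) and 10 h (right), from the 1st to the 99th percentile, for members (red) and all peaks tested (grey). The red curves lie to the right of the grey ones, with medians of 0.51 and 0.35 against -0.00 and 0.01. The grey curves include peaks that BDNF opened at 1 h, which the rule kept out of the members.

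The member with the smallest p at 6 h was the intergenic peak 19.1 kb from the start of Ube2ql1, a ubiquitin-conjugating enzyme-like gene. It held 21.6 and 20.9 CPM with KCl at 6 h, 4.45 and 1.54 with BDNF, and 8.26 to 11.1 (median 9.65) in controls. The KCl libraries stood above all controls and the BDNF libraries below them. KCl exceeded BDNF by 2.83 ± 0.40 (log2 ± SE, edgeR adjusted p = 7.53e-07), and at 10 h the difference was 1.04 with an adjusted p of 0.170. The Kcnq3 intron member, in the gene of a subunit of the potassium channel behind the M current, also had low BDNF values. KCl 6 h libraries held 13.8 and 24.2 CPM, BDNF 6 h libraries 2.78 and 4.98, and controls 4.95 to 13.95 (median 10.6), so that the first KCl library and the second BDNF library fell within the control range. The difference was 2.00 ± 0.39 (edgeR adjusted p = 6.01e-04) at 6 h and 0.42 at 10 h (adjusted p = 0.654).

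Other members differed through KCl with BDNF near the controls. The promoter peak of Gzmk (chr13:113225760-113226291), which encodes a granzyme of lymphocytes, held 49.2 and 49.1 CPM with KCl at 6 h, 20.0 and 18.2 with BDNF, and 15.96 to 27.2 (median 20.0) in controls. It was called at both times, at 1.36 ± 0.22 (edgeR adjusted p = 3.83e-05) and 1.07 ± 0.24 (adjusted p = 0.00653). The 10 h call was lost without the second KCl or the second BDNF 10 h library (1.04 and 0.91). The Gzmk transcript was too low to be tested. The Cacnb2 member had higher KCl values at each later time, although 10 h against 6 h was not called. Cacnb2 encodes an auxiliary β subunit of voltage-gated calcium channels. Its peak held 9.13 and 12.2 CPM in the KCl 1 h libraries, 16.6 and 21.7 in those of 6 h, and 28.5 and 29.6 in those of 10 h, whereas BDNF libraries of the 3 times held 4.18 to 7.92 and controls 3.78 to 5.64 (median 4.42). The difference between stimuli was 1.73 ± 0.39 at 6 h (edgeR adjusted p = 0.00541, lost without the first BDNF 6 h library) and 1.82 ± 0.38 at 10 h (adjusted p = 0.00363).

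A further 2 distal members with printed sequences were called at 6 h. The Tle4 peak, near a corepressor gene of deep-layer neurons, held 66.5 and 51.5 CPM with KCl and 35.3 and 34.7 with BDNF (0.85 ± 0.18, edgeR adjusted p = 0.00208). The peak nearest to Ift57, a gene of intraflagellar transport, held 28.0 and 24.2 CPM with KCl and 8.35 and 9.27 with BDNF (1.49 ± 0.32, edgeR adjusted p = 0.00381). Both calls were lost without the first KCl 6 h library. At 10 h neither was called, with differences of 0.11 and 0.74.

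The remaining members named by smallest p at 10 h were each lost without at least 2 of the 4 libraries compared. The intronic peak at chr15:61599720-61600119, in a noncoding transcript 385 kb from Myc, held 31.1 and 22.1 CPM with KCl at 10 h, 10.9 and 5.76 with BDNF, and 7.18 to 11.1 (median 9.28) in controls (1.63 ± 0.36, edgeR adjusted p = 0.00657). At the Vwa3b promoter (chr1:37028992-37029641) KCl libraries held 36.2 and 30.5 CPM and BDNF libraries 19.3 and 11.5 (1.11 ± 0.26, edgeR adjusted p = 0.0132). An intergenic peak 43.3 kb from Nid2, a basement membrane gene, held 20.8 and 14.6 CPM against 2.97 and 5.40 (1.94 ± 0.48, edgeR adjusted p = 0.0199), and was also called at 6 h (1.85, adjusted p = 0.0177). In an intron of Fat3, an atypical cadherin gene, KCl libraries held 12.4 and 9.64 CPM and BDNF libraries 0.989 and 3.60, the latter below all controls (5.90 to 9.57, median 6.43). That difference was 2.06 ± 0.52 (edgeR adjusted p = 0.0257). The 1 member called lower with KCl was the promoter peak of Sft2d2 (chr1:165193932-165194684), with 9.04 and 6.84 CPM with KCl at 10 h against 16.8 and 19.1 with BDNF (-1.27 ± 0.37, edgeR adjusted p = 0.0622), and it was lost without any 1 of the 4 libraries.

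KCl itself was compared between 10 h and 6 h. edgeR called 0 members, as it called 0% of all peaks. At an unadjusted p below 0.05, 16 members differed (4 higher and 12 lower), against 1708 higher and 1631 lower of all 56383 peaks. DESeq2 called 0 (13 unadjusted) and limma 0 (20 unadjusted), and the median difference was -0.07. Against the controls that the rule had also used, the late libraries are described only. With KCl 65 members were called higher at 6 h (background 5.44%) and 1 lower (2.06%), and 51 at 10 h (5.91%) and 1 lower (1.96%). With BDNF 0 were higher by edgeR at 6 h (8.88%) and 6 lower (1.75%). There 7 members, and 6543 of all 56383 peaks, were higher at an unadjusted p below 0.05. At 10 h 7 were higher with BDNF (7.46%) and 3 lower (1.90%). The median log2 ratio of members was 0.51 and 0.43 with KCl at 6 h and 10 h and 0.03 and 0.11 with BDNF. The 0.93 at 1 h was set by the rule, and no change from it is read. A ratio of 0.8 or more was held by 119 members at KCl 6 h and 90 at KCl 10 h, against 1 and 16 with BDNF. The share of kept peaks at that ratio is not given. Their upper quartile was 0.30 and 0.29 with KCl at 6 h and 10 h, and 0.20 and 0.25 with BDNF. As the rule held BDNF at 1 h below 0.3, the contrast with BDNF is not independent of it.

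Members lay farther from gene starts than other kept peaks. Of the 481, 211 were intergenic (43.9%), 158 intronic (32.8%), 14 exonic (2.91%) and 98 in the promoter window of any annotated gene (20.4%), 84 of them of a protein-coding gene (17.5%, 1000 bp upstream to 100 bp downstream of a start). Among all kept peaks 31.2% were intergenic, 29.3% intronic and 32.0% in protein-coding promoters. The share in protein-coding promoters was lower still in peaks opened by both stimuli (3.90%) and by BDNF only (6.75%). The median distance to a protein-coding start was 58.6 kb in members, 46.6 kb in peaks opened by both, 34.5 kb with BDNF only and 13.0 kb in kept peaks. Outside promoters it was 80.9 kb against 41.1 kb, and 46.0% of those members were over 100 kb from a start against 30.4%. Of the intergenic members 8 (3.79%) lay within 10 kb downstream of the end of a protein-coding gene, against 10.6% of intergenic kept peaks. Members were scattered. Their nearest protein-coding starts belonged to 442 genes, 35 of which were nearest to 2 or more members (Samd5 to 4, Myc and Oxgr1 to 3 each), and 14 members had another within 50 kb. These shares describe the peak lists and carry no test.

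Members were also AT-rich. Their median GC content was 44.0% (quartiles 40.1 and 48.6) against 50.9% in kept peaks, 43.2% in peaks opened by both and 46.6% with BDNF only. Outside promoters it was 42.8% against 46.7%, whereas members in protein-coding promoters (64.2%) were close to other promoters (63.4%). The ratio of single libraries moved with GC over all kept peaks. Pearson's r was -0.20 and -0.11 in the KCl 1 h libraries, -0.08 and -0.12 in BDNF 1 h and -0.11 to 0.14 in controls. Later KCl libraries had -0.25 and -0.12 at 6 h and -0.27 and -0.30 at 10 h. For BDNF it was -0.14 in both 6 h libraries and -0.25 and -0.18 at 10 h. These values describe peaks that share a library. With the trend of the ratio on GC removed in each group, the rule chose 319 peaks, 284 of them members. With the GC trend also removed in the later edgeR tests, 33 members were called higher with KCl than with BDNF at 6 h and 21 at 10 h. Against controls KCl was then called higher in 49 and lower in 4 at 6 h, and higher in 36 and lower in 1 at 10 h. Shares of all peaks called with the GC trend removed are not given, so no excess of members over all peaks is read from these counts. The part of GC in the selection and in these calls was not tested further.

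The letters of 22 motifs were searched on both strands in the central 200 bp of each peak. Motifs were scored separately and may overlap. AP-1 letters were in 6.44% of members (31 of 481), against 73.2% of peaks opened by both stimuli, 45.2% of those opened by BDNF only and 9.93% of kept peaks. The rule removed peaks that BDNF opened, which often held AP-1 letters. Among kept peaks outside promoters the share depended on this choice, at 13.7% in all and 4.70% where the BDNF ratio at 1 h was below 0.3, and it was 7.31% in members outside promoters. Members were thus below the first share and above the second.

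Of the 22 motifs, 11 were in a larger and 11 in a smaller share of members than of kept peaks. Among the latter were SP (GGGCGGG, 6.24% against 14.0%), E-box (CAGCTG, 12.1% against 17.5%), ETS (CCGGAAG, 0.832% against 4.30%) and NRF1 letters (0% against 2.04%). Outside promoters SP was in 1.04% against 3.39% and E-box in 13.1% against 20.2%. ETS was there in 0.522% against 0.994% and NRF1 in 0% against 0.295%. Of the 1001 peaks opened by both stimuli, 12 held SP, 148 E-box, 5 ETS and 0 NRF1 letters. Each share was again below that of kept peaks, so the low shares were not particular to members. Homeobox letters (TAATTA) were in 15.4% of members and 8.52% of kept peaks, and outside promoters in 18.3% and 12.2%. Where GC content was 40 to 45% outside promoters (158 members, 6567 kept peaks), the shares were 17.7% and 15.6%, a smaller gap. The POU octamer (ATGCAAAT) was in 6.03% of members and 2.89% of kept peaks, and at like GC in 8.23% and 4.52%. TEAD letters (GGAATG) were in 14.1% and 9.89%, at like GC in 17.1% and 12.6%, and in 15.2% of peaks opened by both stimuli. RFX letters were in 2.70% against 1.19% (3.16% and 1.22% at like GC). MEF2 letters were in 5.41% against 2.64%, but in 3.80% against 4.83% at like GC, and in 7.09% of peaks opened by both stimuli. CTCF letters were rare in members (0.208% against 4.04%). They were also rare in peaks opened by both stimuli (3 of 1001) and less frequent with BDNF only (1.67%) than in kept peaks. The full CRE was in 1.25% of members and 0.875% of kept peaks, and in 4 of 84 members in protein-coding promoters (4.76%) against 2.00% of kept promoters. Counts behind the rarer motifs are small (13 members for RFX, 6 for CRE, 1 for CTCF), and a match describes letters, not binding.

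**Figure D4:**
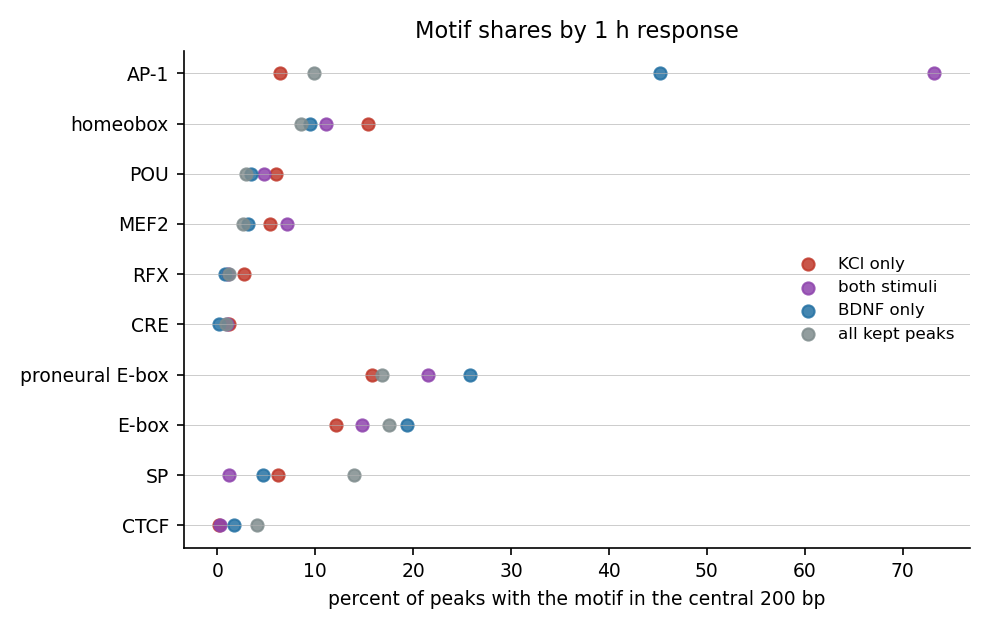
Percent of peaks (x axis) whose central 200 bp hold the letters of 10 of the motifs (y axis), for members (red), peaks opened by both stimuli (purple), by BDNF only (blue) and all kept peaks (grey). AP-1 separates the sets most, at 6.44% in members and 73.2% in peaks opened by both, and homeobox letters are at 15.4% in members against 8.52% in kept peaks.

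The RNA libraries, which the rule had not used, gave the transcripts of genes with a member at their promoter. The 84 promoter members belonged to 87 protein-coding genes, of which 85 were in the RNA table and 59 (67.8%) had a mean normalised count of at least 10 and were tested, against 92.9% of the promoter genes of kept peaks. Promoter genes of members were weakly expressed, with a median of 30.8 normalised counts in controls against 395. At KCl 1 h 13 of the 59 rose (limma on log2(value + 1), adjusted p below 0.1, background 26.5% of 16209 genes) and 5 fell (background 28.2%). Shares of 22.0% and 8.47% of those tested were not above the background. The median log2 fold change was 0.12 against 0.00. At KCl 6 h 15 rose (33.4%) and 14 fell (33.1%), and at 10 h 14 rose (29.0%) and 9 fell (28.2%). At BDNF 1 h 7 rose (21.3%) and 7 fell (19.0%). Compared directly at 1 h, 9 were higher with KCl than with BDNF (18.2%) and 6 lower (24.6%), so that no share of genes higher with KCl exceeded that of all genes. The 59 include Areg, which passed the filter on low values through its BDNF libraries. Any call of Areg in comparisons with BDNF is thus not independent of that filter.

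Of the promoter genes called higher at KCl 1 h, the 6 with the largest change are given. Gem, an RGK GTPase that restrains calcium channels, had 106 and 78.1 normalised counts with KCl at 1 h, 60.8 and 52.7 with BDNF and 29.7 to 50.5 (median 33.8) in controls. It rose by 1.33 ± 0.19 (log2 ± SE, limma adjusted p = 5.88e-06) and was 0.68 ± 0.24 higher with KCl than with BDNF (adjusted p = 0.0280), a difference lost without the first KCl or the second BDNF 1 h library. Its promoter peak held 36.2 and 33.2 CPM with KCl at 1 h, 19.4 and 18.1 with BDNF and 14.1 to 21.5 (median 17.2) in controls, and at 6 h KCl (23.3 and 12.1) and BDNF (20.3 and 20.9) overlapped. Tac1, the precursor of substance P, had 51.9 and 42.8 normalised counts with KCl, 57.8 and 52.7 with BDNF and 16.5 to 35.3 (median 21.1) in controls. It rose by 1.01 ± 0.22 with KCl (limma adjusted p = 6.63e-04) and 1.23 with BDNF, with no call between them (-0.22 ± 0.27, adjusted p = 0.556). Gpr83, a G protein-coupled receptor gene, rose by 1.04 ± 0.33 (limma adjusted p = 0.0147, lost without the first KCl 1 h library). Crhr2, a receptor of CRH peptides, was called at 0.77 ± 0.38 (limma adjusted p = 0.0970) from 11.1 and 18.2 normalised counts. The first value lay within the control range of 3.29 to 13.5 and the second above it, and edgeR and DESeq2 on whole reads did not call Crhr2. Nod1, an innate immune sensor gene, rose by 0.67 ± 0.26 (limma adjusted p = 0.0360) and was 1.04 higher with KCl than with BDNF (adjusted p = 0.0128). Both calls were lost without 1 library, the second KCl 1 h library for the first and the second BDNF 1 h library for the other.

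At other promoters the peak was higher with KCl and the transcript with BDNF. Rgs4, a regulator that shortens G protein signalling, had a promoter peak (chr1:169747367-169748005) with 46.4 and 46.3 CPM with KCl at 1 h and 24.1 and 29.1 with BDNF, against 19.9 to 26.7 (median 23.2) in controls. Its transcript reached 1064 and 557 normalised counts with KCl at 1 h and 3830 and 3904 with BDNF, against 382 to 458 (median 410) in controls. It rose by 0.90 ± 0.16 with KCl (limma adjusted p = 2.58e-04) and 3.23 ± 0.16 with BDNF (adjusted p = 5.23e-10), and the difference between stimuli was -2.33 ± 0.19 (adjusted p = 2.22e-07). By KCl 6 h and 10 h the transcript had reached 2272 to 2874. Areg, which encodes the EGF receptor ligand amphiregulin and was singled out after its values were seen, showed the same contrast. Its promoter peak (chr5:91139284-91140015) held 38.0 and 39.3 CPM with KCl at 1 h, 22.0 and 16.9 with BDNF and 14.9 to 23.9 (median 19.8) in controls. The Areg transcript had 2.47 and 3.21 normalised counts with KCl at 1 h and 120 and 105 with BDNF, against 0.979 to 3.11 in controls. The gene passed the filter on low values through the BDNF libraries, so no test is given. At 6 h its peak was higher with KCl than with BDNF (0.84 ± 0.26, edgeR adjusted p = 0.0617).

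The 5 promoter genes that fell at KCl 1 h were Rwdd3, Tead3, Esrrg, Slc10a7 and Lman1. Rwdd3, a gene linked to SUMO conjugation, went from 70.9 to 97.9 normalised counts in controls to 37.0 and 46.0 with KCl (-0.97 ± 0.18, limma adjusted p = 1.27e-04) and 57.8 and 51.9 with BDNF. Tead3, a TEAD transcription factor gene, fell by 0.63 (-0.63 ± 0.16, limma adjusted p = 0.00294) and Esrrg, a nuclear receptor gene, by 0.50 (-0.50 ± 0.15, adjusted p = 0.00922). The changes of Slc10a7 and Lman1 were -0.45 and -0.25, and the call of Lman1 was lost without the first KCl 1 h library, that of Esrrg without the second.

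**Figure D5:**
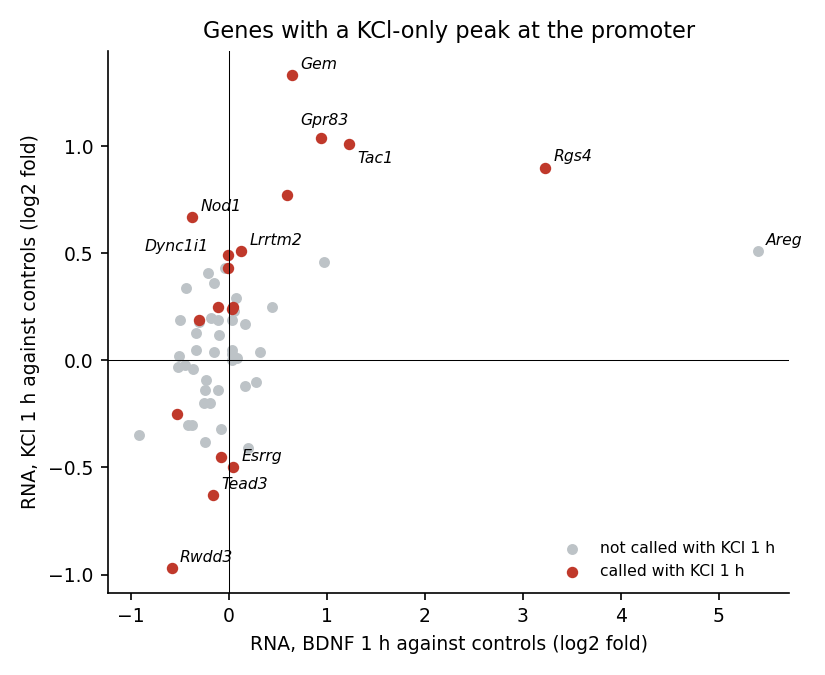
Log2 fold change of RNA against controls with BDNF at 1 h (x axis) and KCl at 1 h (y axis) for the 59 tested genes with a member at their promoter, each point 1 gene, in red where called with KCl. Gem is highest with KCl (1.33), while Rgs4 (3.23) and Areg (5.40) lie far to the right, with larger rises with BDNF. Areg is among the 59 genes because its BDNF libraries carried it past the filter on low values, so its position is a description.

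Members near genes of 3 activity lists are given next, where 170 of the 16209 genes tested were the nearest within 50 kb of a member and 59 had one at the promoter. These lists were chosen with results of these data known. Of 27 early response factors 22 rose and 2 fell with KCl at 1 h (26 and 0 with BDNF), where 26.5% and 28.2% of all genes were called with KCl and 21.3% and 19.0% with BDNF, and 1, Nr4a3, had a member within 50 kb of its start or at its promoter. Nr4a3, an orphan nuclear receptor gene, had 10756 and 7814 normalised counts with KCl at 1 h, 2091 and 2185 with BDNF and 908 to 1054 (median 1002) in controls, and was 2.1 ± 0.1 higher with KCl than with BDNF (limma adjusted p = 9.94e-13). Its intronic member held 8.62 and 13.3 CPM with KCl at 1 h, 3.66 and 6.11 with BDNF and 2.47 to 8.26 (median 5.24) in controls, and the stimuli did not differ by call at 6 h or 10 h (0.20 and 0.56, edgeR adjusted p = 0.913 and 0.700). Of 25 activity effectors 21 rose and 1 fell, and 3 had a member nearby, Gem and Tac1 at the promoter and Rasgrp1, a Ras activator gene, with an intergenic peak 47.0 kb away. Rasgrp1 was not called with KCl at 1 h (-0.06, limma adjusted p = 0.771) and was 0.55 higher with KCl than with BDNF (adjusted p = 0.0164, lost without the first KCl 1 h library).

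Of 36 genes of calcium entry and signalling 19 rose (background 26.5%) and 5 fell (background 28.2%) with KCl at 1 h, and 3 had a member in an intron. Mef2c, a calcium-responsive transcription factor gene, had 5875 and 5294 normalised counts with KCl at 1 h and 2524 and 2552 with BDNF, on either side of the controls (4295 to 4712, median 4507), a difference of 1.14 ± 0.09 (limma adjusted p = 8.78e-10). Its member held 11.9 and 12.7 CPM with KCl at 1 h, 4.45 and 4.68 with BDNF and 3.30 to 8.62 (median 5.89) in controls, and later differences of 1.14 at 6 h and 1.35 at 10 h passed no test (edgeR adjusted p = 0.193 and 0.165). Cacnb2 was lower with KCl at 1 h, at 102 and 105 normalised counts against 134 to 151 (median 145) in controls, and higher at 6 h (185 and 181) and 10 h (200 and 229). The limma changes were -0.47 ± 0.10 (adjusted p = 7.98e-04), 0.34 ± 0.10 (adjusted p = 0.00689) and 0.57 ± 0.10 (adjusted p = 1.04e-04), while its intronic peak was above the controls at all 3 times. Cacnb2 also fell with BDNF at 1 h (-0.39, limma adjusted p = 0.00551). Cacna1e, the R-type channel gene, was called lower with KCl at 1 h (-0.23, limma adjusted p = 0.0895, lost without either KCl library). Its member held 14.7 and 15.9 CPM with KCl at 1 h and was higher with KCl than with BDNF at 10 h (1.66, edgeR adjusted p = 0.0671).

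Taking instead the nearest protein-coding start within 50 kb gave 217 genes for 221 members, 170 of them tested. At KCl 1 h 47 rose and 28 fell, 27.6% and 16.5% of those tested against 26.5% and 28.2% of all genes. Compared directly, 46 (27.1%) were higher with KCl than with BDNF and 20 (11.8%) lower, where 18.2% and 24.6% of all genes were. Among genes next to members called at 6 h, Ube2ql1 rose by 0.46 ± 0.08 with KCl at 1 h (limma adjusted p = 9.41e-05) and by 0.23 with BDNF. Kcnq3 had 1411 and 1295 normalised counts with KCl at 1 h against 996 and 1045 with BDNF and 1036 to 1256 (median 1114) in controls (KCl against BDNF 0.41 ± 0.11, limma adjusted p = 0.00710). The naming rule for genes did not cover Ube2ql1 and Kcnq3, and transcripts near the Tle4, Ift57 and Nid2 members are not given. Cacnb2, whose member was also called at 6 h, fell with KCl at 1 h. These transcript values are from 1 h, whereas the peaks were called at 6 h.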

How the data were processed

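ATAC-seq and RNA-seq were analysed from 18 libraries each. The authors placed ATAC reads on mm10 by Bowtie2 and ran MACS2 on each sample. Peaks of 2 or more samples entered the consensus that DiffBind counted. The deposited ATAC values are counts (whole, lowest 1, with totals that differ by library), so the LOESS scaling of the study was applied here as offsets. RNA reads went through TopHat2 on mm10, and the authors deposited a signal, gene counts divided by a DESeq2 size factor. All values were whole multiples of the smallest step within 0.01 (100%), and edgeR on these whole reads called 8802 genes at KCl 1 h. The authors' tables of fold changes and p-values from their own comparisons were not used.

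Accessibility was tested with edgeR 4.0.16 (glmQLFit robust, glmQLFTest, two-sided) on peaks with a mean count of at least 10, with 7 levels (each stimulus and time, and the 6 controls as 1 level, as in the study). The standard error was the fold change divided by the square root of F. RNA was tested with limma 3.58.1 (trend, robust) on log2(value + 1) for genes with a mean of at least 10. Fold changes on that scale are understated for low genes. A feature was called where its p, adjusted by Benjamini-Hochberg over all features tested, was below 0.1. Replicates differed beyond sampling noise (chi-square per degree of freedom 1.99 to 2.55 for ATAC and 2.02 to 27.7 for RNA). On simulated counts with 200 changed peaks, the 6 h comparison of 56383 peaks recovered 27% of 2-fold and 85% of 4-fold changes. The changed peaks were drawn from all peaks with a mean count of at least 20. Members were weaker than other kept peaks, and recovery at their counts was not simulated.

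Promoters, contexts and distances came from GENCODE M21 and sequence from GRCm38. Of 26709 RNA identifiers 26162 had a symbol. Members and lists were chosen with earlier results of these data known. Members named were the 6 with the largest KCl ratio at 1 h, up to 6 with the smallest p called higher with KCl at 6 h and at 10 h and up to 3 called lower, 2 on each side of each limit, the 6 promoter genes that rose most and fell most at KCl 1 h, and those at or within 50 kb of a listed gene. The pairing letters of the RNA columns were checked. Correlations of the deviations between 36 pairs of groups ran from -0.31 to 0.42, 13 of them above 0.1, so the letters were not taken to pair samples. The sequences of 2 further members are not reported here.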

Additional observations from a re-analysis of the deposited data

Results flagged for a closer look

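In the 34 sets of 6 control values looked at for named members and genes, 1 value stood far from the others. The Fat3 intron member (chr9:16437815-16438210) held 9.57 CPM in the first control 6 h library, next to 6.59 in the second highest control, a gap of 0.811 of the whole range, above the limit of Dixon's test for 6 samples. Chance marks about 1 in 20 such sets. The call of this member at 10 h compared KCl with BDNF and did not use that library directly.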

How the results depend on the processing

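The number of members followed the limits and the libraries closely. It was 473 to 802 with single KCl or BDNF 1 h libraries left out, while single controls were not left out. With the controls of 1 h only it was 587 (273 of them members). The number was 838 at a mean count of at least 10, 104 at 50 (69 of them members) and 319 with the GC trend removed. Of members called between KCl and BDNF at 6 h (41), 7 passed an adjusted p below 0.01, TMM gave 63, DESeq2 size factors gave 62, and leaving out 1 library gave 7 to 21. At 10 h (22) the stricter threshold gave 3 and leaving out 1 library 4 to 10. For KCl 6 h against controls (66) the stricter threshold gave 20, limma 126 and left-out libraries 21 to 70. For KCl 10 h against controls (52) the values were 18 at the stricter threshold, 92 with TMM, 80 with DESeq2 size factors, 86 with limma and 21 to 52 with left-out libraries. Promoter genes called at an adjusted p below 0.01 numbered 9 of 18 at KCl 1 h, 14 of 23 at 10 h and 5 of 15 for KCl against BDNF at 1 h. Taking the nearest start within 50 kb gave 75, 95 and 92 at KCl 1, 6 and 10 h and 66 between stimuli, from a larger gene set. With a library left out the counts were 15 to 15, 27 to 28, 20 to 20 and 9 to 15, the 9 without the first BDNF 1 h library. The cause of these shifts was not tested. With the RNA letter as a replicate block, 19, 29 and 25 promoter genes were called at KCl 1, 6 and 10 h and 17 between stimuli. No paired analysis was possible for ATAC because its columns carry no replicate number. Of 143 alternatives for named members 125 kept direction and call and 18 lost the call. Of 348 for named genes 310 kept the call or its absence, 30 lost the call and 8 gained it. No direction reversed where the main analysis had made a call. Changes of sign in genes without a call were not counted. In simulated counts at this depth, 27% of 2-fold changes were recovered at 6 h, in peaks not matched to the weaker counts of members.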
